A study of Caenorhabditis elegans with 2 samples.

Results

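Nuclear hormone receptor genes of Caenorhabditis elegans were examined for the position of tagged FOS-1 in their promoters. The members are the protein-coding genes whose annotation symbol begins with nhr-, with 1 symbol left out, and they number 268 of 19973 nuclear protein-coding genes. They were chosen by name and not by any measured value, though with earlier results of these data known. The data are peak lists from chromatin immunoprecipitation followed by sequencing (ChIP-seq) of whole L4 larvae, of both sexes together, of strain OP304, which carries the unc-119(ed3) allele on III and the insertion wgIs304 with eGFP-tagged fos-1. There was 1 group of 2 biological replicates, both with the same strain, stage and tag, and no untagged strain, other stage or other condition is compared here. The labels give neither the promoter that drives the tagged gene nor its copy number. Whole animals were used, so a region bound in a few cells and a region bound weakly in many cannot be told apart.

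Nuclear hormone receptors are transcription factors that pair a zinc finger DNA-binding domain with a ligand-binding domain, so that many of them switch genes in answer to a steroid, a fatty acid or another small molecule. A small set of the worm genes has clear counterparts in insects and mammals. Most arose by expansion from an HNF4-like ancestor and lie in clusters, above all on chromosome V. Several have known roles in fat metabolism, vitamin B12 sensing, molting and defence against foreign compounds. FOS-1 is the worm Fos protein, a basic leucine zipper factor whose relatives bind the AP-1 motif.

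A promoter summit is the authors' summit position of a listed region where it falls from 1000 bp upstream to 200 bp downstream of any annotated 5' end of a gene. On build ce11 the authors' set that passed the irreproducible discovery rate (IDR) is the top of the pooled list, while the lists of the single replicates are far longer, with 30000 regions for replicate 1 and 29345 for replicate 2. Apart from the IDR set, these lists include background by design, and the median −log10 q-value of the pooled list was 0.131. The signal of a region is the authors' value from their peak caller, on a scale they did not state, and it ranks regions within 1 list only. The replicate 2 list has 18 mitochondrial regions, which move the ranks of its nuclear regions by at most that number. Read totals were not analysed here, and library depth is unknown.

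Nuclear hormone receptor genes carried promoter summits of the pooled list somewhat more often than other genes, and in the IDR set their share was near that of other genes. In the IDR set 3 of 268 members had a promoter summit (1.12%, exact 95% interval 0.231 to 3.24), against 0.802% of the 19704 other protein-coding genes, a share within that interval. In the pooled list 31 members had one (11.6%, exact 95% interval 8.0 to 16.0), against 7.61% of the others. The −log10 q-value of these regions was 1.46 to 2.01 at the 3 IDR members, 1.31 at nhr-35 and at most 0.650 at the rest. Most of the 31 regions are therefore not set apart from background by their own q-values. In the replicate 1 list the count was 114 members (42.5%), against 39.6% of the others, and in the replicate 2 list 118 members (44.0%), also against 39.6%. In both replicate lists 67 members had one (25.0%, exact 95% interval 19.9 to 30.6), against 20.9% of other genes. The intervals cover counting error only, and members that lie close together are not independent. The excess in the pooled list is thus a description without a test. No promoter summit was found in any list for 103 members (38.4%), against 41.7% of other genes.

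The excess did not hold at every depth of the ranked lists. Among the highest 500 pooled regions 4 members had a promoter summit (1.49%), near the 1.40% of other genes. At that depth the share was 1.12% against 1.37% in replicate 1 and 1.87% against 1.17% in replicate 2. Among the highest 1000 pooled regions 12 members had a promoter summit (4.48%), against 2.75% of other genes. Among the highest 1000 of replicate 1 there were 7 members (2.61%), against 2.40%, and among the highest 1000 of replicate 2 also 7 (2.61%), against 2.22%. Both replicate lists had 3 members within that depth (1.12%), against 0.756% of other genes, wherever in a gene's promoters the 2 regions lay. Within the highest 500 both lists had 1 member (0.373%), against 0.452%. At a depth equal to the size of the IDR set, the share in replicate 1 was lower in members than in other genes, at 0.373% against 0.660%. At the same depth of replicate 2 it was 1.12% against 0.639%. Both lists together had 0 members there, against 0.269% of other genes. The members within the highest 1000 of both replicates were nhr-135, nhr-66 and nhr-49. The best regions of the 2 replicates lay 1190 bp apart at nhr-49 and 207 bp apart at nhr-66.

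**Figure D1:**
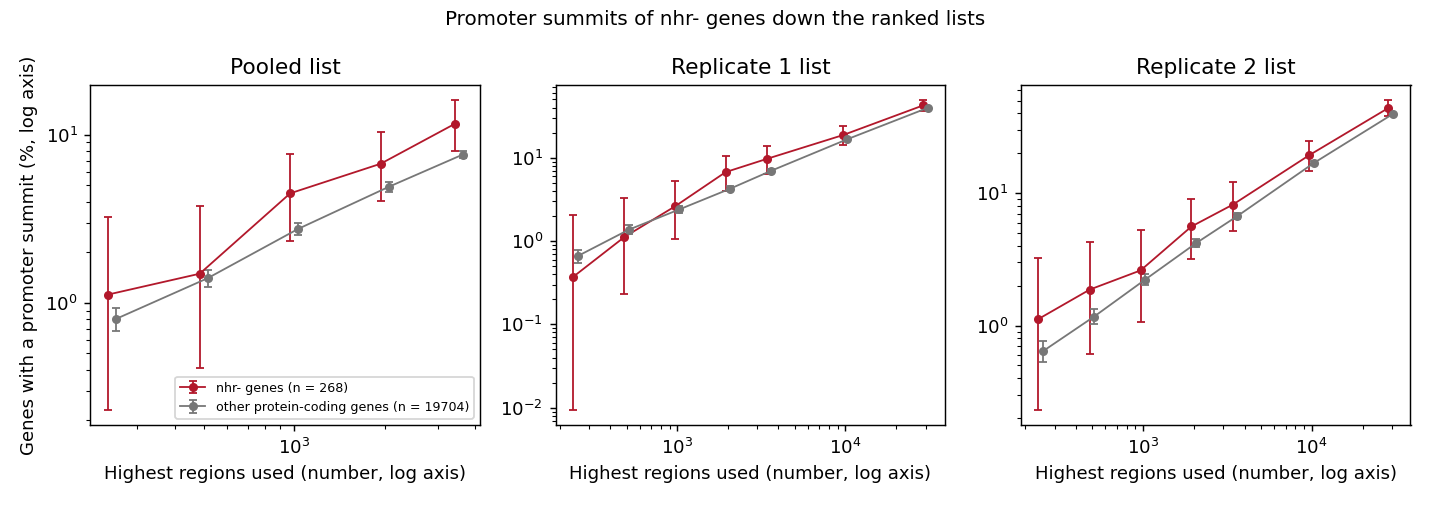
Share of genes with a promoter summit (percent, log axis) among the highest regions of the pooled, replicate 1 and replicate 2 lists (number of regions, log axis), for 268 nhr- genes in red and 19704 other protein-coding genes in grey, with exact 95% intervals. In the full pooled list the shares were 11.6% and 7.61%, and in both full replicate lists the red interval includes the grey point.

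The 3 members of the IDR set were nhr-119, nhr-68 and nhr-135. The summit of nhr-119 lay at −502 bp from its 5' end, that is upstream, on chromosome II, in a region of rank 153 with a pooled signal of 35.6. That of nhr-68 lay at −381 bp on chromosome V, at rank 195 with a pooled signal of 33.4. nhr-68 encodes a receptor that works with NHR-10 to turn on the propionate shunt when vitamin B12 is short. That of nhr-135 lay at −136 bp on chromosome V, with a pooled signal of 31.1, and it is the last region of the set. The next member was nhr-35 on X, just outside the set at rank 275, with a pooled signal of 30.1 at −369 bp. In the replicates nhr-35 had signals of 10.8 in replicate 1 (rank 2643) and 17.7 in replicate 2 (rank 323). The windows of the 3 IDR members are shown because they are the strongest regions at any member. Each has 121 bases around the pooled summit on the gene's strand of ce11, and capitals mark the repeats CTCTCT or GAGAGA and ACACAC or GTGTGT.
nhr-119, chrII:2801042-2801162, minus strand: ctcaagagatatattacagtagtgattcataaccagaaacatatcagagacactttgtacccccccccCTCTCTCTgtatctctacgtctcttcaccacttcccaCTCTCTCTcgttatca
nhr-68, chrV:11572999-11573119, plus strand: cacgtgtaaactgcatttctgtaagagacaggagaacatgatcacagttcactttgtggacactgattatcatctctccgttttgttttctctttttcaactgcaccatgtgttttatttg
nhr-135, chrV:7093846-7093966, minus strand: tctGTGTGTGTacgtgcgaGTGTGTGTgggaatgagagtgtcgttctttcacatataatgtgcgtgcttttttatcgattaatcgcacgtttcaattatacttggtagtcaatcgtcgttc
Of these windows, that of nhr-119 held the CT repeat, that of nhr-135 the CA repeat, read here as GT, and that of nhr-68 neither.

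At the pooled summit itself, the replicates differed sharply at 2 of the 3 IDR members. Within 200 bp of the pooled summit of nhr-119, the signal was 31.0 in replicate 1 (rank 45) and 7.09 in replicate 2 (rank 14347), close to the replicate 2 list's median of 7.02. At nhr-68 it was 8.13 in replicate 1 (rank 7882) and 25.5 in replicate 2 (rank 97). The gene had a stronger replicate 1 region elsewhere in its promoters, at 12.7 (rank 1253), and a second pooled summit, at 18.5 (rank 2142). nhr-135 stood well above the list medians in both, at 14.8 in replicate 1 (rank 599) and 17.5 in replicate 2 (rank 344). So 1 of 3 IDR members was within the highest 1000 of both replicates at the same place, while 108 of 158 other genes with an IDR promoter summit were (68.4%). A replicate rank beyond 5000, or no region within 200 bp, occurred at 2 of 3 members and at 12 of 158 other genes (7.59%). With replicate 2 left out, 1 member, nhr-119, lay within a depth of replicate 1 equal to the size of the IDR set. With replicate 1 left out, the members within that depth of replicate 2 were nhr-68, nhr-66 and nhr-15, so that nhr-68 was the one IDR member among them. With 3 members these shares are a description only.

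Further down the pooled list the replicates also differed at many members, as they did at other genes. All 31 members had a different pooled summit as their best. Both replicates had a region within 200 bp at 27 of the 31, and at 1153 of the 1500 other genes with a pooled promoter summit. At 1 of 31 members, nhr-135, both were in the highest 1000 (3.23%), against 8.73% of those other genes. To a depth equal to the pooled list's length, both held 7 members (22.6%), against 19.8% of the others. The gene nhr-66 had signals of 5.41 in replicate 1 and 19.3 in replicate 2 at its pooled summit, although replicate 1 had a stronger promoter region elsewhere, at 16.7, 207 bp from that of replicate 2. At nhr-85 the signals were 17.4 in replicate 1 and 6.89 in replicate 2, and at nhr-42 the ranks were 774 in replicate 1 and 16861 in replicate 2. At nhr-46 the signals were 5.31 in replicate 1 and 13.0 in replicate 2. More even were nhr-50, with 12.7 in replicate 1 and 13.2 in replicate 2, nhr-48, with 13.6 and 11.4, and nhr-258, with 10.9 and 13.9. The genes nhr-15, nhr-145 and nhr-248 had no replicate 1 region within 200 bp, and nhr-195 had none in replicate 2. In replicate 2 the region of nhr-15 was among the strongest at any member, with a signal of 18.7 (rank 244).

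**Figure D2:**
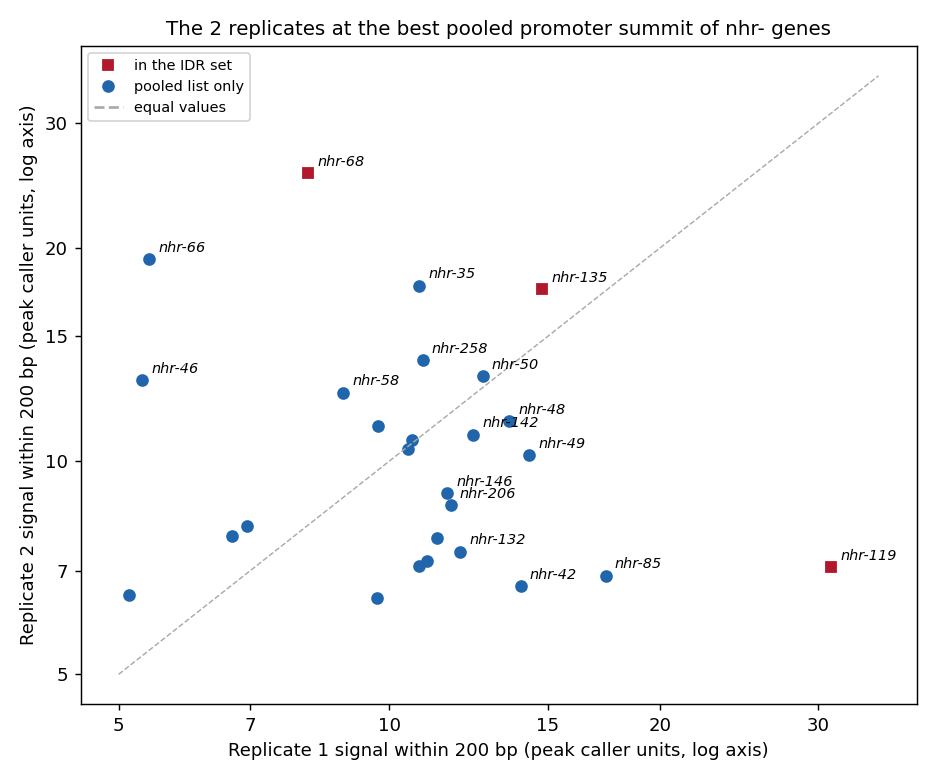
Signal of the strongest region within 200 bp of the best pooled promoter summit in replicate 1 (x, log axis) and in replicate 2 (y, log axis), in the authors' peak caller units, for the 27 nhr- genes with a region in both. Red squares are in the IDR set and blue circles in the pooled list only. The squares of nhr-119 (31.0 and 7.09) and nhr-68 (8.13 and 25.5) lie far to opposite sides of the line of equal values, and nhr-135 (14.8 and 17.5) lies near it.

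Among the 10 receptors with counterparts across animals, 0 had an IDR promoter summit, against 0.802% of other genes, and 2 had a pooled one, against 7.61%. Counts over 10 genes carry little information. These were nhr-85, a relative of Rev-erb and E75 that acts in larval timing, and nhr-48, of the family of DAF-12 and NHR-8. The pooled summit of nhr-85 had a signal of 24.3 (rank 663) and lay in an intron of the gene, at −824 bp from the nearer of its 2 annotated 5' ends. That of nhr-48 had a signal of 20.9 (rank 1251), at −695 bp in intergenic sequence. For nhr-23, a ROR relative that drives molting, the best regions were at rank 11237 in replicate 1 and 11656 in replicate 2, with signals of 7.31 and 7.62, near the list medians. For nhr-6, an NR4A relative needed in the spermatheca, they were at rank 22638 in replicate 1 and 10679 in replicate 2. No list had a promoter summit for nhr-25, a relative of FTZ-F1 with roles in the epidermis and vulva, and its nearest pooled summit was 12498 bp from a 5' end. The drug and cholesterol receptor gene nhr-8 had a region of rank 2838 in replicate 2 alone, at a signal of 11.2, and it stands in the metabolism list too. Of the rest, nhr-41 and nhr-91 had a region in replicate 2 alone (ranks 7780 and 22558), and nhr-111 and nhr-239 in replicate 1 alone (ranks 13216 and 14106).

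Of 13 receptors listed for metabolism, 5 had a pooled promoter summit, and nhr-68 alone had an IDR one. This list was drawn up with the IDR summit of nhr-68 already known, so its count of 5 (38.5%, against 7.61% of other genes) is not independent of the earlier results. The gene nhr-49 encodes an HNF4-like receptor that governs fatty acid oxidation and desaturation. It had 3 pooled summits in its promoters, the best at a signal of 24.0 (rank 680), at −408 bp. Its replicate maxima were 14.3 in each replicate but lay 1190 bp apart, over 6 annotated 5' ends. Its partner gene nhr-66 had a pooled signal of 22.5 (rank 903), at a summit inside an exon of the gene. Replicate ranks over all its promoters were 355 in replicate 1 and 217 in replicate 2.

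The summit of nhr-114, which protects against harmful bacterial diets and acts in methionine metabolism, lay in an intron of the overlapping gene Y45G5AM.9 with a pooled signal of 21.1. There the signal was 11.3 in replicate 1 (rank 2155) and 7.79 in replicate 2 (rank 10968). At nhr-69 the pooled signal was 18.1 (rank 2307), with ranks of 14487 in replicate 1 and 10727 in replicate 2. The remaining metabolism receptors nhr-80, nhr-13, nhr-62, nhr-10, nhr-64, nhr-76, nhr-8 and nhr-86 had no pooled promoter summit. nhr-10, the partner gene of nhr-68, had none in any list, and its nearest pooled summit was 1303 bp from its 5' end.

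Lists of related and partner genes were short, and their counts stand beside 7.61% of other genes with a pooled promoter summit. The 5 receptor genes with other names (daf-12, unc-55, fax-1, odr-7 and sex-1) had 0 pooled promoter summits, and daf-12, the dafachronic acid receptor gene, had its best region at rank 1283 in replicate 2, with a signal of 13.3, and at rank 9333 in replicate 1. Of 5 matched genes of cofactors and ligand enzymes, 2 had one, mdt-15 and din-1. mdt-15 encodes the Mediator subunit that partners with NHR-49. Its pooled signal was 23.1 (rank 798), with 16.3 in replicate 1 (rank 405) and 7.26 in replicate 2 (rank 13430). The DAF-12 corepressor gene din-1 had a pooled signal of 18.4 (rank 2179), with 13.3 in replicate 1 (rank 995) and 7.50 in replicate 2 (rank 12180). Neither the 5 propionate shunt genes (acdh-1, ech-6, hach-1, hphd-1 and alh-8) nor the 6 genes of fatty acid metabolism (fat-5, fat-6, fat-7, acs-2, fmo-2 and cpt-5) had a pooled promoter summit, and at a background of 7.61% such zeros carry little information. Of these, ech-6 came highest in a replicate list, at rank 1103 in replicate 1, with no region in replicate 2.

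Chromosome V holds 167 of the 268 members (62.3%), against 24.5% of the other genes, and the share with a pooled promoter summit was lower on V than elsewhere both for members and for other genes. On V 17 of 167 members had a pooled promoter summit (10.2%), against 5.39% of the other genes there. Outside V 14 of 101 members had one (13.9%), against 8.34% of the other genes. On chromosome IV it was 7 of 32 members (21.9%, exact 95% interval 9.28 to 40.0), against 8.62%. On chromosome III it was 0 of 8, which with an exact 95% interval up to 36.9% carries little information, against 9.76%. The members on X had 2 of 23 (8.70%), against 7.79%, those on I had 3 of 23 (13.0%), against 9.67%, and those on II had 2 of 15 (13.3%), against 6.29%.

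Members in runs of neighbouring nhr- genes had a pooled promoter summit at a lower share than members outside them. A run was counted where neighbouring nhr- gene bodies lay at most 20000 bp apart, which put 173 members into 45 runs, 128 of these members on V. Strand and other genes in between were not considered, so a run need not be a tandem array. In the runs 16 of 173 members had a pooled promoter summit (9.25%, exact 95% interval 5.38 to 14.6), and outside them 15 of 95 (15.8%, exact 95% interval 9.12 to 24.7), so the intervals overlap. In both replicate lists it was 20.2% in runs and 33.7% outside. The 8 runs of at least 7 genes, with 70 members in all, had 4 members with a pooled promoter summit (5.71%, exact 95% interval 1.58 to 14), an interval that includes the 7.61% of other genes. In the replicate 2 list 47.1% of the members in these long runs had a summit (exact 95% interval 35.1 to 59.4). That interval includes the 39.9% in all runs and the 39.6% of other genes. In the replicate 1 list the share in long runs was 38.6%, against 38.2% in all runs. The longest, of 12 genes at V 451451 to 497297, had 1, at nhr-55 (rank 3477, signal 16.6), although 10 of its genes had a region in replicate 2 and 5 in replicate 1. The runs that follow it in length, of 10, 10, 9 and 8 genes, had none.

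In 32 of 45 runs no member had a pooled promoter summit, in 13 at least 1 did, and in 3 there were 2. One of the 3 is the pair nhr-31 and nhr-258 on chromosome IV, which are transcribed away from each other across 15424 bp. nhr-31, which acts in the excretory cell, had a summit at −841 bp (pooled signal 21.2), and nhr-258 a separate one at −230 bp (pooled signal 24.0). Another is nhr-58 and nhr-132 on V, where the summit counted for nhr-132 lies in an exon of nhr-58 (signal 16.7). The third is nhr-49 and nhr-69. Elsewhere a run had at most 1 member with a summit, as at nhr-42 (signal 23.7), the last of 7 genes at V 6980587 to 7000651, and at nhr-206 (signal 18.4), the first of 7 genes at V 12092006 to 12109313.

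**Figure D3:**
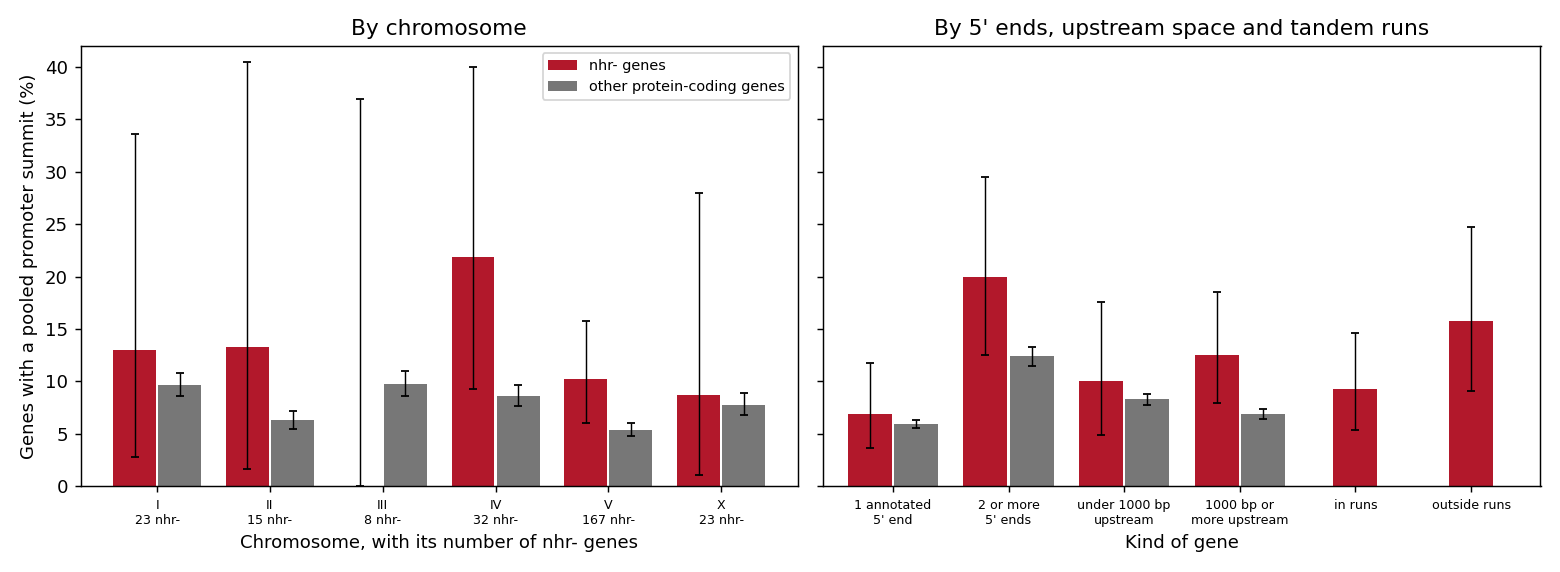
Share of genes with a pooled promoter summit (percent, bars from 0, with exact 95% intervals) for nhr- genes in red and other protein-coding genes in grey. The left side is by chromosome. The right side is by number of annotated 5' ends, upstream space and runs of nhr- genes, which are defined by distance alone (runs concern nhr- genes only). On V the bars stand at 10.2% and 5.39%, and for genes with 1 annotated 5' end at 6.94% and 5.93%.

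The annotation itself gives members somewhat more promoter sequence than other genes, 1469 bp against 1311 bp for each gene. Among genes with 1 annotated 5' end the shares of members and other genes were close. Members averaged 1.61 annotated 5' ends and other genes 1.47, and the median space to the next protein-coding gene upstream was 1575 bp for members and 929 bp for others. Promoter windows were not cut at the next gene, so that space does not alter their length. Of members with 1 annotated 5' end, 12 of 173 had a pooled promoter summit (6.94%, exact 95% interval 3.64 to 11.8), against 5.93% of such other genes, a share inside that interval. The interval also includes the 11.6% of all members, so a smaller excess among these genes is not shown. Of members with 2 or more 5' ends, 19 of 95 had one (exact 95% interval 12.5 to 29.5%), against 12.4%. With at least 1000 bp of upstream space it was 12.5% of members, against 6.88%, and with less space 10 of 100 members, against 8.29%. Counted over promoter sequence, the windows of members held 8.89 distinct pooled summits for each 100 kb and those of other genes 5.32. The same density in the replicate 1 list was 39.4 for members and 34.2 for other genes, and in the replicate 2 list 40.1 and 34.5. The part of 5' end number in the excess was not tested.

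The summits at members lay mostly in intergenic sequence. Of the 31 best pooled summits 29 were upstream of the nearest 5' end, as were 1329 of 1500 in other genes, in a window that is itself mostly upstream, with a median of −396 bp in members and −301 bp in the 1500 other genes. Intergenic summits numbered 21 (67.7%, against 59.3% in other genes), intronic ones 4 and exonic ones 6. A summit shared with the promoter of another gene was found for 4 of 31 members (12.9%), against 29.1% of other genes. These were nhr-68 (with H12C20.7), nhr-142 (with F44E7.9), nhr-15 (with phf-10) and nhr-248 (with ZK218.7), and the peaks cannot be assigned to 1 gene of such a pair. A few summits counted for a member lay inside a neighbour. That of nhr-146 was in an intron of nhr-87, and that of nhr-176 was in an exon of cyp-35D1, the cytochrome P450 gene that NHR-176 is known to control (pooled signal 17.1, rank 3091). The median pooled rank was 1204 at members and 1513 at other genes with a pooled promoter summit, and the highest signal was 35.6 at members and 132 at other genes.

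**Figure D4:**
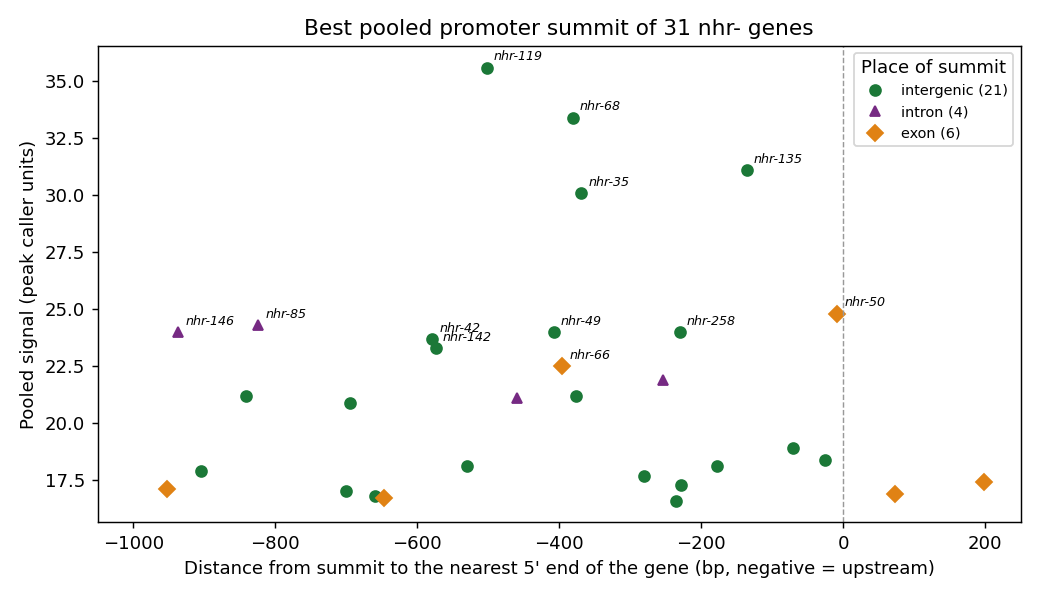
Pooled signal in the authors' peak caller units (y) against the distance from summit to the nearest annotated 5' end of the gene (x, bp, negative upstream) for the 31 nhr- genes with a pooled promoter summit, by the place of the summit. The 4 highest points, from 30.1 to 35.6, are intergenic and lie between −502 and −136 bp, and the rest lie at or below 24.8.

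The AP-1 motif, TGACTCA or TGAGTCA, stood within 100 bp of the pooled summit at 3 of 31 members (9.68%), against 4.47% of other genes with a pooled promoter summit and 3.01% of all pooled windows. Within 50 bp it stood at 1 member, nhr-50, and over the full width of the regions at 4. Counts this small carry little information, and no share of other genes is given at these 2 other widths. The 3 were nhr-50, nhr-195 and nhr-206, all on chromosome V, where 17 of the 31 members lie. None was in the IDR set, where 8.06% of the windows hold the motif. Their stretches are printed because they are the member windows with the consensus within 100 bp, as 47 bases on the gene's strand of ce11 with the motif in capitals.
nhr-50, chrV:16000633-16000679, minus strand: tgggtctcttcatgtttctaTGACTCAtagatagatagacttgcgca
nhr-195, chrV:8972659-8972705, minus strand: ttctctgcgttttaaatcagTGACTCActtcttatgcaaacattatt
nhr-206, chrV:12091906-12091952, plus strand: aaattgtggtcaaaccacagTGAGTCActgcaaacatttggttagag
The motif centre lay 47 bp from the summit at nhr-50 (signal 24.8, rank 619), 66 bp at nhr-195 (signal 21.2, rank 1182) and 51 bp at nhr-206 (signal 18.4, rank 2161). Of these, nhr-50 had nearly equal replicate ranks, 1238 and 1360, nhr-195 had no region in replicate 2, and nhr-206 had a rank of 1852 in replicate 1 and 7844 in replicate 2. Both strands were searched, and absence of these letters from a window says nothing about binding there.

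Other short motifs were about as frequent at members as elsewhere. The receptor half-site AGGTCA, a hexamer that many nuclear receptors bind, was within 100 bp at 2 of 31 members, nhr-85 and nhr-55 (6.45%, against 5.13% of other genes and 4.88% of all pooled windows). The TGACGTCA site of other basic leucine zipper factors was at 0 of 31, against 0.867% of other genes. TGATAA, a form of the site bound by intestinal GATA factors, was at 7 (22.6%), against 23.6%. CTCTCT or GAGAGA was at 7 members (22.6%), against 21.8% of other genes, with 17.7% of all pooled windows and 35.1% of IDR windows. ACACAC or GTGTGT was at 4 members (12.9%), against 180 of 1500 other genes, with 10.7% of pooled and 23.4% of IDR windows. These motifs other than AP-1 were chosen after the data were seen, both strands were searched, and no TGACGTCA site holds a full AP-1 site.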

How the data were processed

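ChIP-seq peak lists were read as the authors deposited them, on build ce11. The lists on ce10 were not used. Per the labels' deposited file lists, a replicate list came from 1 replicate's alignment and a control alignment common to both, the pooled list from both replicates, and the IDR set from the pooled and replicate lists. The aligner, peak caller and IDR threshold are not stated in the labels. The signal and the −log10 q-value of each region are the authors' deposited values. Regions were ranked by signal within a list, and the summit is the deposited summit offset. The 248 IDR regions are the highest 248 of the 3527 in the pooled list.

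Genes came from Ensembl annotation release 115 of the same build, and sequences from the RefSeq copy of that build. All lists lie within its chromosome lengths. Shares have exact Clopper-Pearson 95% intervals. With 1 group of 2 replicates no test between conditions exists, and none was made over the gene list. The symbol daf-21 had no match. The assignment of summits to genes was tested on simulated data, with genes far apart and 1 5' end for each. Shared promoters and genes with several 5' ends were not part of that test. Members, gene lists and alternatives were chosen with earlier results of these data known. Genes named by rule are those with an IDR summit, the 10 best of the pooled list, the 5 best of each replicate list, those in the highest 1000 of both replicates, the listed receptors and partners, and the run with the most members. The symbol left out and 1 sequence window are not reported here. A match between lists is the strongest replicate region within 200 bp. Genes named for a shared promoter, a motif, a neighbour or a difference between replicates, and the runs other than the longest, were chosen after their values were seen. Python 3.11.15, numpy 2.4.6, scipy 1.17.1 and matplotlib 3.10.9 were used.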

Additional observations from a re-analysis of the deposited data

How the results depend on the processing

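Of 31 recomputed values 21 stayed within the fixed limit, 1.5 times for counts and the exact interval for percentages, and 10 moved, mostly as built in by a smaller or larger window or list. The share of nhr- genes was above that of other genes in 18 of 22 alternatives with both shares. The exceptions were all among the IDR counts and the counts in the highest 1000 of either replicate. They include the IDR share with the promoter from 2000 bp upstream to 500 bp downstream (1.12%, against 1.14%). They also include the highest 1000 with the 5' end of the gene body only (3.36%, against 3.36%). These alternatives recount the same lists and genes, so they are not independent of each other. No IDR set exists for 1 replicate, so the highest regions of 1 replicate list, equal in number to the IDR set, were used instead. In replicate 1 alone the count was 1 (nhr-119), a share of 0.373% against 0.660% of other genes. In replicate 2 alone it was 3, but with nhr-66 and nhr-15 beside nhr-68 in place of nhr-119 and nhr-135. The narrow promoter runs from 500 bp upstream to 100 bp downstream and the wide one from 2000 to 500 bp. The pooled count was 18 with the narrow promoter (6.72%, against 4.99%) and 17 with the weaker part of the list left out at its median rank (6.34%, against 4.39%). The count in both replicate lists was 36 with the narrow promoter (13.4%, against 10.4%) and 110 with the wide one (41%, against 38.8%). It was 44 where the summits had to lie within 200 bp of each other (16.4%, against 12.4%, added after seeing the data). The count in the highest 1000 of either replicate was 11 in the full window (4.10%, against 3.86%), near the share of other genes. It was 6 with the narrow promoter (2.24%, against 2.58%) and 17 with the wide one (6.34%, against 5.86%). AP-1 was at 1 member within 50 bp and at 4 over the full width of the regions. Among genes with 1 annotated 5' end the pooled share was 6.94%, a setting also chosen with the data in view. The cause of these changes was not tested beyond their construction, and depth is unknown.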
